A study of Mus musculus with 9 samples.

Results

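Cdk5, its activators and their binding partners were followed in tumors of the INS-p25OE mouse and in normal islets. The calpain system, which cuts the activator p35, was followed with them. The 10 genes were chosen by name, whatever their level: the kinase (Cdk5), its activators p35 (Cdk5r1) and p39 (Cdk5r2), 3 binding partners (Cdk5rap1, Cdk5rap2 and Cdk5rap3), the calpains (Capn1 and Capn2), their shared small subunit (Capns1) and their inhibitor calpastatin (Cast). All 10 were among the 54347 genes listed and the 15532 genes that were tested. The study sequenced RNA from 3 functional tumors (M1 to M3, labelled Tumor Inulin), 3 non-functional tumors (M4 to M6, labelled Tumor) and 3 normal islet samples (NI1 to NI3, strain C57BL/6). M2 came from a female mouse and the other libraries came from males. The INS-p25OE strain carries an Ins2-driven rtTA and a tetOp-p25GFP transgene, so doxycycline in the drinking water from weaning induces p25 fused to GFP in β-cells. Controls in the study were transgene-negative littermates, and its methods place all mice, with or without transgenes, on a C57BL/6 background. The labels give no ages for these libraries and do not say whether the islets came from animals on doxycycline. They also do not say whether each library came from a separate mouse, and p-values then measure only the spread between these samples.

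Cdk5 is a cyclin-dependent kinase that does not need a cyclin. It becomes active when it binds p35 or p39, and it is best known from neurons, where the p35 complex sits at membranes and acts in migration and synaptic function. Calpains, which are calcium-dependent proteases, cut p35 to p25, a stable fragment that leaves the membrane and keeps the kinase active. In β-cells Cdk5 and p35 take part in the control of insulin secretion.

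The transgene codes for p25, the C-terminal part of p35, so its reads may be counted for Cdk5r1 and then cannot be told apart from reads of the endogenous gene in a table of counts per gene. The sequence of the construct was not analysed here. Cdk5r1 lies on chromosome 11 (80477023 to 80481184, plus strand, GRCm38), and its coding sequence of 921 bases lies within 1 exon (80477509 to 80478429) and encodes 307 residues. The calpain site is shown because it marks where p25 starts within p35. At chr11:80477788-80477817 on the plus strand the reference reads as follows, with the first codon of p25 (codon 99, at 80477803) in capitals.
Cdk5r1, calpain site: aacctgtccacattcGCCcagcccccgccg
From that codon on, p25 has 627 coding bases and 209 residues, which is 68.1% of the p35 coding sequence but 15.1% of the 4162 bases of the transcript. The translated p35 and p39 sequences were identical at 57.0% of 305 aligned residues, at 63.3% of the 207 aligned residues of the p25 part and at 43.9% of the 98 residues before the cut. Read in the direction of transcription, neither Cdk5, Cdk5r1 nor Cdk5r2 shared a 31-base word with the transcripts of any other gene. Reverse complements were not searched, and 0 exon bases of these genes overlapped exons of another gene on either strand.

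The libraries held between 36468280 and 63637175 estimated counts, and the members' counts ran from 199 (Cdk5rap1 in M4) to 22065 (Cdk5r1 in M3). Mitochondrial genes took 32.1% of the counts of M4 and between 1.76% and 8.41% of the other libraries. The β-cell markers (10 genes, summed) ran from 18880 to 117200 CPM (counts relative to the library's total, scaled by the trimmed mean of M-values, TMM) in the tumors and from 122400 to 365700 in the islet libraries. Such sums follow the most abundant genes. Gene by gene, 3 of the 10 had a log2 fold change above 0 in tumors against islets (median -0.58). At an unadjusted edgeR p under 0.05, 1 was higher and 3 were lower, and 0 passed after adjustment. Glucagon, somatostatin and pancreatic polypeptide cell markers (8 genes) summed to 438 to 3553 CPM in tumors and 1549 to 21750 CPM in islet libraries, and acinar markers (10 genes) to 0.766 to 231 CPM and 348 to 6441 CPM. One islet library stood apart from its label. Over the 15532 tested genes the library labelled NI1 lay at a Euclidean distance of 39.6 from M6 on the log2(CPM + 1) scale, against 94.6 from NI2 and 106 from NI3. NI2 and NI3 lay 60.1 apart. Of the tested genes, 89.5% were within 1.25-fold between NI1 and M6, and 47.8% between NI1 and NI2. The counts of NI1 and M6 still differed by more than sampling noise (a chi-square of 44.6 per degree of freedom, the lowest of the 36 pairs of libraries). The cause was not tested, and the results below are given with all 9 libraries and without the library labelled NI1. The fit with all 9 libraries is the main one. The fit without NI1 was set beside it because of these values, so its p-values are not those of the main test.

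**Figure D1:**
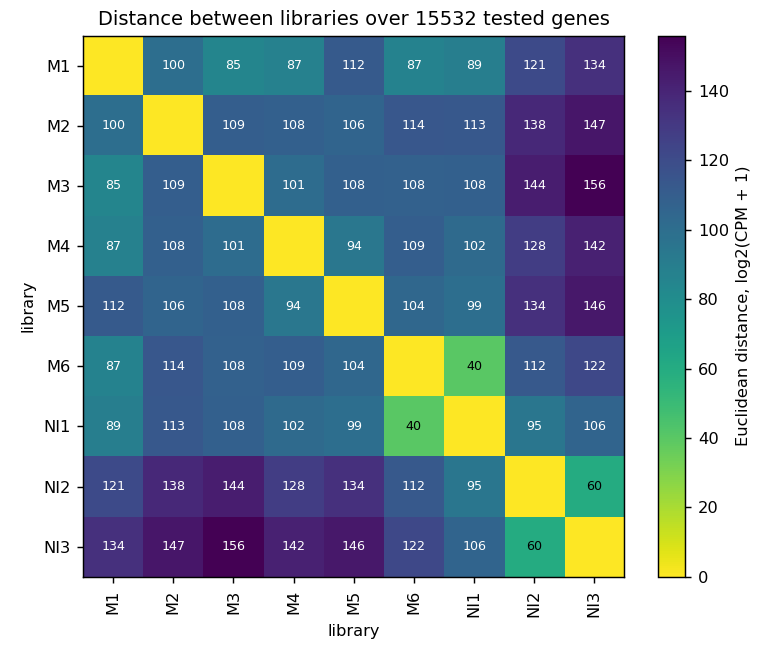
Euclidean distance between each pair of the 9 libraries (rows and columns) over log2(CPM + 1) of the 15532 tested genes, where darker squares are larger distances. The smallest distance, 40 after rounding, joins M6 and the library labelled NI1, and the next, 60, joins NI2 and NI3.

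Cdk5r1, which encodes p35, was high in every tumor and in 1 of the islet libraries. Its TMM-scaled level in the functional tumors was 292 CPM in M1, 201 in M2 and 401 in M3. In the non-functional tumors it was 169 CPM in M4, 149 in M5 and 341 in M6. In the islet libraries it was 279.6 CPM in NI1, 18.4 in NI2 and 12.5 in NI3. The tumors therefore overlapped with the islet group through the library labelled NI1 alone, which lay above M2, M4 and M5, and every tumor was above NI2 and NI3. Against the mean of NI2 and NI3 the tumors were 9.66-fold (M5) to 26.0-fold (M3) higher, and NI1 was 18.1-fold higher. With all 9 libraries the log2 fold change of tumors against islets was 1.32 ± 0.87 (SE), which did not pass the quasi-likelihood test of edgeR (adjusted p = 0.416). Without NI1 it was 4.06 ± 0.51 (edgeR adjusted p = 0.00367), and without NI1 and M6 it was 3.97 (edgeR adjusted p = 0.00567). The direction thus rests on the labels of NI2 and NI3, and NI1 went against its own.

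In the order of Cdk5r1 levels M3 came first, followed by M6, M1, NI1, M2, M4 and M5. Each of these was between 1.05 and 1.39 times the next. The step from M5 to NI2 was 8.12-fold. The functional tumors had a mean of 298 ± 100 CPM (SD, n = 3) and the non-functional tumors 219.7 ± 105 CPM (SD, n = 3). This difference (log2 fold change 0.44 ± 0.99 SE) did not pass the edgeR test (adjusted p = 0.903). Without NI1, each group rose against the 2 remaining islet libraries, with a log2 fold change of 4.27 ± 0.52 for functional tumors (edgeR adjusted p = 0.00554) and of 3.83 ± 0.51 for non-functional tumors (edgeR adjusted p = 0.0113).

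Cdk5 itself, the catalytic subunit, was measured at similar values in the tumors and the islet libraries, with no call in any comparison (chromosome 5, 24418241 to 24423530, minus strand, GRCm38). It was 37.5, 40.2 and 32.5 CPM in M1 to M3, 38.9, 54.7 and 39.7 CPM in M4 to M6, and 35.8, 41.2 and 38.0 CPM in NI1 to NI3. The groups overlapped, and M5 alone stood above the other libraries. The tumor mean of 40.6 ± 7.43 CPM (SD, n = 6) and the islet mean of 38.3 ± 2.71 CPM (SD, n = 3) gave a log2 fold change of 0.08 ± 0.18 (SE, edgeR adjusted p = 0.835). Functional against non-functional tumors gave -0.27 ± 0.20 (SE, edgeR adjusted p = 0.648).

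Cdk5r2 encodes the second activator p39 (chromosome 1, 74854934 to 74857732, plus strand) and is known mainly from brain. Its level in NI1 was 0.801 times the mean of NI2 and NI3. It was 32.3, 36.4 and 30.3 CPM in M1 to M3, 21.6, 31.8 and 38.7 CPM in M4 to M6, and 31.9, 38.9 and 40.8 CPM in NI1 to NI3. M4 was lowest, and all 6 tumors lay below NI2 and NI3 but not below NI1. The log2 fold change of tumors against islets was -0.22 ± 0.20 (SE, edgeR adjusted p = 0.559) and without NI1 -0.33 ± 0.23 (SE, edgeR adjusted p = 0.392).

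Per kilobase of all annotated exons, the kinase and its activators stood in another order in tumors than in NI2 and NI3. Which transcripts were expressed was not analysed here, and their lengths may differ from this one. Levels of different genes therefore compare only roughly, while libraries compare within a gene. In NI2 and NI3, Cdk5r1 was at 4.41 and 3.01 CPM per kb, Cdk5r2 at 13.9 and 14.6, and Cdk5 at 19.0 and 17.5. In the tumors, Cdk5r1 ran from 35.9 to 96.4 CPM per kb, Cdk5r2 from 7.70 to 13.8, and Cdk5 from 15.01 to 25.2. The ratio of Cdk5r1 to Cdk5 was 4.05, 2.61 and 6.42 in M1 to M3, 2.265, 1.42 and 4.47 in M4 to M6, 4.07 in NI1, 0.232 in NI2 and 0.172 in NI3. By this length, reads counted for Cdk5r1, which may include transgene reads, exceeded those of the kinase in all 6 tumors and in the library labelled NI1. They were fewer in NI2 and NI3. These ratios divide Cdk5r1 by its full exon length of 4162 bases. Where along the gene its reads lay was not analysed here, so a ratio over the p25 part alone is not given.

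For 5 such ratios the libraries were compared by exact permutation (two-sided). The ratio of Cdk5r1 to Cdk5 was 5.78-fold higher in tumors than in islets (exact permutation p = 0.0595, adjusted over the ratios 0.0992) and 15.8-fold higher than in NI2 and NI3 (exact permutation p = 0.0357, the smallest that 28 arrangements allow, adjusted 0.0595). The ratio of Cdk5r2 to Cdk5 ran from 0.429 to 0.756 in tumors and from 0.6905 to 0.832 in the islet libraries. M4 and M5 lay lowest, and the ratio was 0.808-fold of that in islets (exact permutation p = 0.167, adjusted 0.208). No ratio passed a threshold of 0.05 after adjustment in any of the 3 comparisons made (tumors against islets, tumors against NI2 and NI3, functional against non-functional). The last of these has 20 arrangements and a smallest p of 0.1, so no ratio could pass there.

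**Figure D2:**
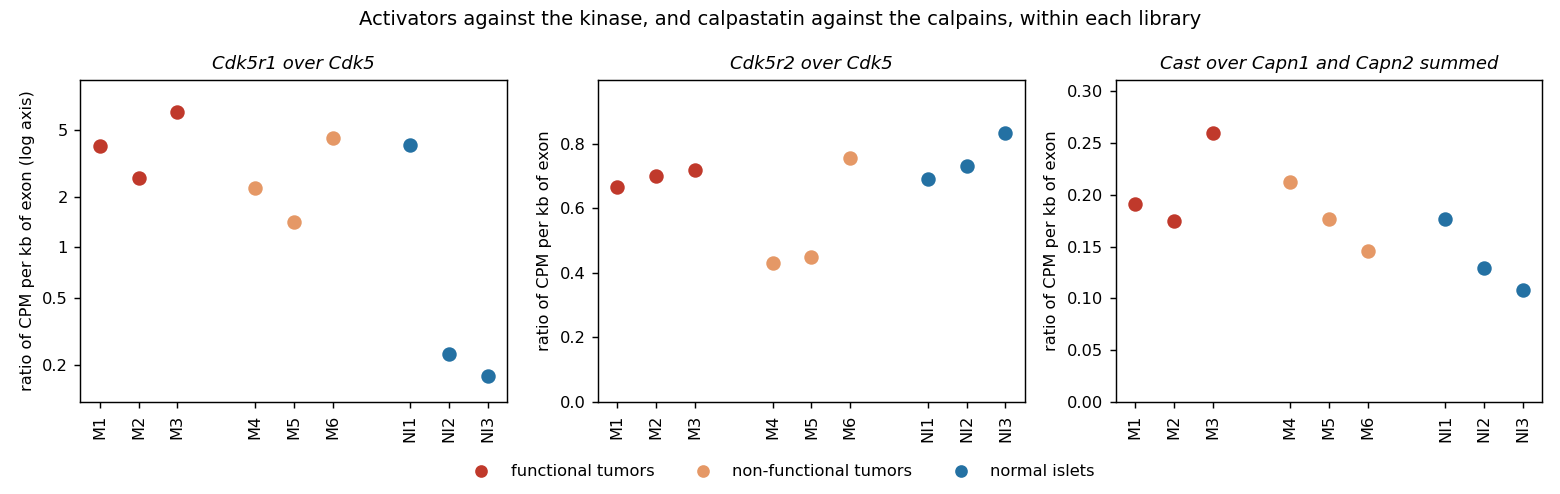
Ratios of CPM per kb of exon within each library (points, coloured by group) for Cdk5r1 over Cdk5 on a log axis, Cdk5r2 over Cdk5, and Cast over Capn1 and Capn2 summed. In the left panel NI2 (0.232) and NI3 (0.172) lie below 1 and the other 7 libraries lie between 1.42 and 6.42.

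Among the binding partners, Cdk5rap2 stood out. It encodes a centrosome protein that anchors γ-tubulin complexes and is a microcephaly gene (chromosome 4, 70216856 to 70410443, minus strand). Its level was 55.2, 66.45 and 81.9 CPM in M1 to M3, 59.65, 62.45 and 31.3 CPM in M4 to M6, and 29.95, 25.8 and 22.75 CPM in NI1 to NI3. All 6 tumors were above all 3 islet libraries, by a narrow gap between M6 and the library labelled NI1. It was the only member without overlap, a pattern that 4.5% of the tested genes had in this direction. The tumor mean was 59.5 ± 16.6 CPM (SD, n = 6) and the islet mean 26.2 ± 3.61 CPM (SD, n = 3). The log2 fold change of 1.18 ± 0.27 (SE) had an unadjusted p of 0.00143 and did not pass the edgeR test after adjustment over all genes (adjusted p = 0.137). DESeq2 called it (log2 fold change 1.18, adjusted p = 0.00299). Without NI1 it was 1.29 ± 0.33 (SE, edgeR adjusted p = 0.0444), without M6 1.31 (edgeR adjusted p = 0.0259) and without both 1.42 (edgeR adjusted p = 0.012).

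By tumor group, Cdk5rap2 gave a log2 fold change against islets of 1.37 ± 0.29 in functional tumors (SE, edgeR adjusted p = 0.0806) and of 0.97 ± 0.29 in non-functional tumors (SE, edgeR adjusted p = 0.332). The difference between the tumor groups was 0.41 ± 0.28 (SE, edgeR adjusted p = 0.636). In the non-functional group M4 and M5 lay near the functional tumors and M6 near the islets. In the transcript annotation 3.24% of the 31-base words of Cdk5rap2 also occur in other genes, and a processed pseudogene (Ywhaq-ps3) overlaps 2.80% of its exon bases on the same strand.

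**Figure D3:**
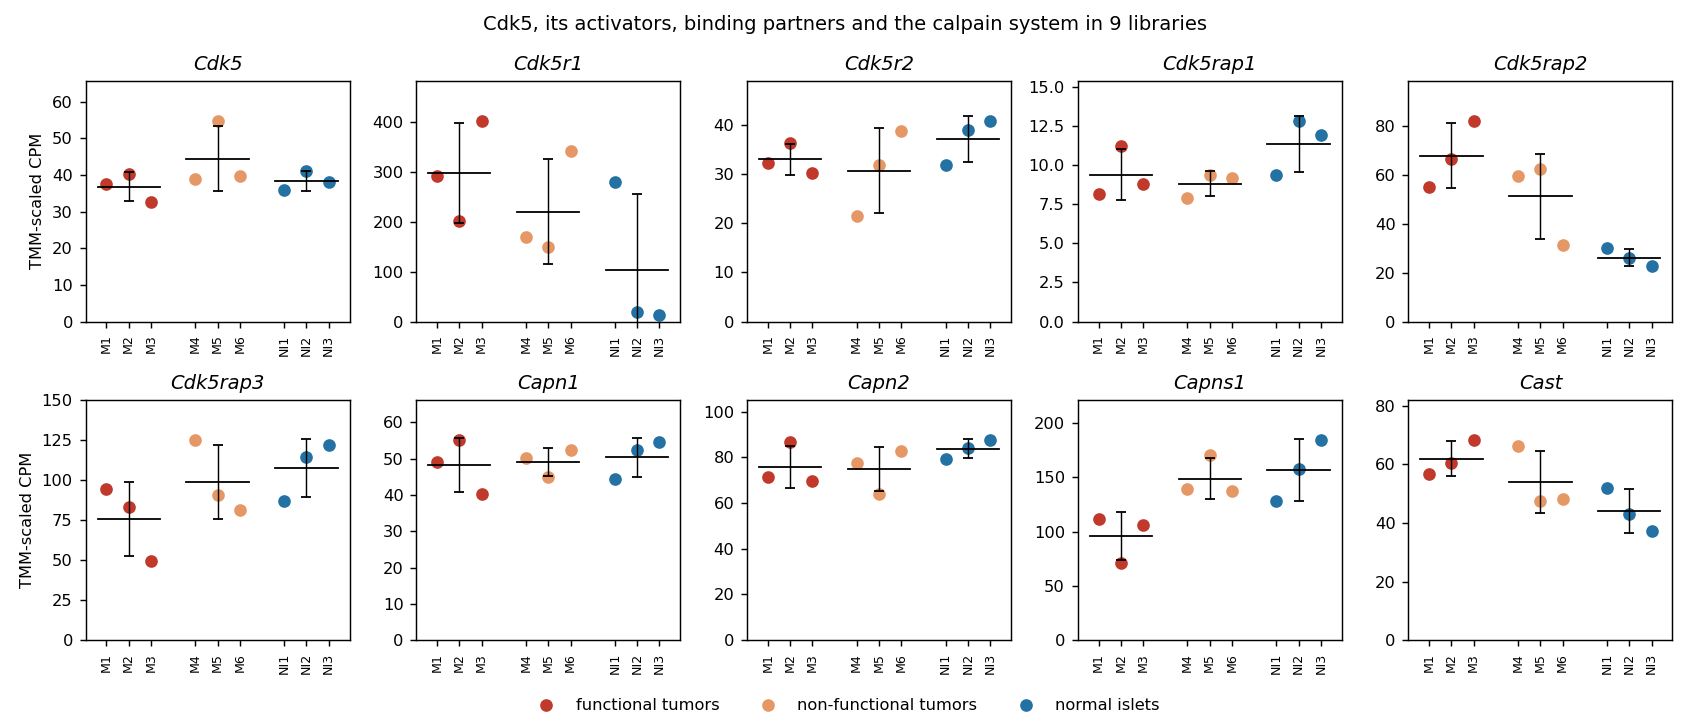
TMM-scaled CPM of the 10 genes in each library, with 1 point per library coloured by group, a horizontal line at each group's mean and bars of 1 SD (n = 3), cut at 0. Cdk5r1 is low in NI2 and NI3 only, and Cdk5rap2 (22.75 to 29.95 CPM in islets) is higher in every tumor.

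Cdk5rap3 encodes an adaptor of the UFM1 ligase, which attaches the small protein UFM1 to ribosomes and other targets at the endoplasmic reticulum (chromosome 11, 96907426 to 96916496, minus strand). It was 94.55, 83.5 and 49.8 CPM in M1 to M3, 125.5, 90.6 and 81.4 CPM in M4 to M6, and 87.2, 114 and 122 CPM in NI1 to NI3. M3 was lowest and M4 highest, so the tumors spanned the islet range. The log2 fold change was -0.30 ± 0.25 (SE, edgeR adjusted p = 0.527) and without NI1 -0.44 ± 0.29 (SE, edgeR adjusted p = 0.361).

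Cdk5rap1 encodes a methylthiotransferase that modifies mitochondrial tRNAs (chromosome 2, 154335380 to 154373010, minus strand). It was at 8.16, 11.2 and 8.82 CPM in M1 to M3, 7.89, 9.385 and 9.18 CPM in M4 to M6, and 9.38, 12.8 and 11.9 CPM in NI1 to NI3. Every tumor was below NI2 and NI3. The log2 fold change was -0.32 ± 0.22 (SE, edgeR adjusted p = 0.451) and without NI1 -0.44 ± 0.25 (SE, edgeR adjusted p = 0.300).

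None of the 4 genes of the calpain system passed the test in any comparison. Capn1, the large subunit of μ-calpain (chromosome 19, 5988545 to 6015897, minus strand), was 49.1, 55.2 and 40.3 CPM in M1 to M3, 50.2, 44.8 and 52.3 CPM in M4 to M6, and 44.3, 52.2 and 54.45 CPM in NI1 to NI3. Capn2, the large subunit of m-calpain (chromosome 1, 182467260 to 182517608, minus strand), was 71.5, 86.5 and 69.6 CPM in M1 to M3, 77.6, 64.05 and 82.8 CPM in M4 to M6, and 79.4, 84.25 and 87.8 CPM in NI1 to NI3. For both genes the groups overlapped, and the highest library was 1.37 times the lowest. Their log2 fold changes were -0.05 ± 0.16 for Capn1 (SE, edgeR adjusted p = 0.892) and -0.15 ± 0.15 for Capn2 (SE, edgeR adjusted p = 0.586). An antisense gene (Gm37885) overlaps 27.1% of the exon bases of Capn2, and Gm10814 overlaps 11.8% of those of Capn1 on the other strand. Whether quantification used strand is not stated, so these levels carry that uncertainty.

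Capns1, the small subunit that both calpains need (chromosome 7, 30186936 to 30198811, minus strand), had the lowest unadjusted p of the members between the tumor groups. It was 112, 70.6 and 106 CPM in the functional tumors and 139, 170.3 and 137 CPM in the non-functional tumors, with 128, 158 and 185 CPM in NI1 to NI3. Every functional tumor was below every non-functional tumor and every islet library, and the share of tested genes with this separation was not counted. Between the tumor groups, 732 of the 15532 tested genes were up and 866 down at an unadjusted edgeR p under 0.05. The difference between the tumor groups (log2 fold change -0.63 ± 0.23 SE) had an unadjusted p of 0.0224 in the edgeR fit and did not pass after adjustment (adjusted p = 0.459). Functional tumors against islets gave -0.71 ± 0.23 (SE, edgeR adjusted p = 0.151) and non-functional tumors -0.08 ± 0.23 (SE, edgeR adjusted p = 0.889).

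Cast, whose product calpastatin blocks both calpains (chromosome 13, 74692368 to 74808810, minus strand), was 56.9, 60.5 and 68.5 CPM in M1 to M3, 66.4, 47.6 and 48.05 CPM in M4 to M6, and 52.1, 43.0 and 37.3 CPM in NI1 to NI3. The tumors were above NI2 and NI3, and M5 and M6 were below the library labelled NI1. The log2 fold change was 0.39 ± 0.19 (SE, edgeR adjusted p = 0.272) and without NI1 0.53 ± 0.21 (SE, edgeR adjusted p = 0.149). Of the 31-base words of Cast, 7.93% occur in transcripts of other genes, and Erap1 overlaps 7.27% of its exon bases on the other strand. Per kilobase of all annotated exons, the ratio of Cast to the sum of Capn1 and Capn2 was between 0.146 (M6) and 0.259 (M3) in tumors. In NI1 to NI3 it was 0.176, 0.1296 and 0.108. It was 1.41-fold higher in tumors than in islets (exact permutation p = 0.0595, adjusted 0.0992).

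Counted over the 10 members, edgeR called 0 in tumors against islets, where 0% of the tested genes were called higher and 0.258% lower. Without adjustment 1 member (Cdk5rap2) had an edgeR p under 0.05, DESeq2 called 1 (Cdk5rap2) and limma-trend 0. The median log2 fold change of the members was -0.10, beside 0.03 over all tested genes, and turned to 0.12, beside 0.25, with libraries scaled by their totals alone. Over all genes edgeR called 0 higher, with 1655 up and 1419 down at an unadjusted p under 0.05, DESeq2 called 764 higher and limma-trend 1. Without the library labelled NI1, edgeR called 2 members higher (Cdk5r1 and Cdk5rap2) and 0 lower, where 5.34% of the tested genes were called higher and 3% lower. Without adjustment 3 members were up and 0 down at an edgeR p under 0.05, beside 2307 up and 1749 down of the 15350 genes tested. In this comparison every tumor was above NI2 and NI3 for 3 members (Cdk5r1, Cdk5rap2 and Cast) and below them for 2 (Cdk5r2 and Cdk5rap1), patterns held by 16.6% and 16.3% of the tested genes.

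**Figure D4:**
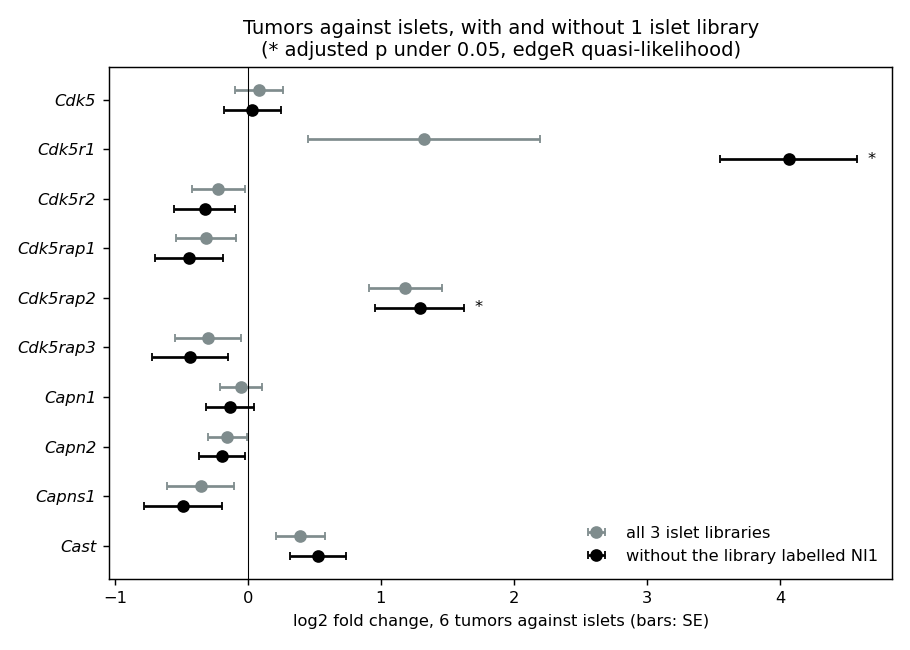
Log2 fold change of the 6 tumors against islets for each gene (points) with SE (bars), with all 3 islet libraries (grey) and without the library labelled NI1 (black). Asterisks mark adjusted p under 0.05: leaving out NI1 moved Cdk5r1 from 1.32 to 4.06 and Cdk5rap2 from 1.18 to 1.29.

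For functional against non-functional tumors edgeR called 0 members and 0% of the tested genes. Capns1 was the only member at an unadjusted p under 0.05, and DESeq2 and limma-trend called 0 members. Over all genes 732 were up and 866 down at an unadjusted p under 0.05, DESeq2 called 22 higher and 89 lower, and limma-trend 1 higher. For functional tumors against islets edgeR called 0 members, beside 0.476% of the tested genes. At an unadjusted p under 0.05 it had 2 members up (Cdk5rap2 and Cast) and 1 down (Capns1), DESeq2 called 1 (Cdk5rap2) and limma-trend 0. Over all genes 1755 were up and 1525 down without adjustment, DESeq2 called 775 higher and 781 lower, and limma-trend 29 higher and 100 lower. For non-functional tumors against islets edgeR called 0 members and 0% of the tested genes, with 1 member (Cdk5rap2) at an unadjusted p under 0.05 and 0 called by DESeq2 and by limma-trend. In that comparison 1285 genes were up and 961 down at an unadjusted p under 0.05, DESeq2 called 242 higher and 152 lower, and limma-trend 20 lower. The last 2 comparisons share their islet libraries. Without NI1, edgeR called 2 members higher in functional tumors (5.16% of tested genes) and 1 in non-functional tumors (2.88%).

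Whether the other members followed Cdk5r1 was asked within the 6 tumors only, since NI2 and NI3 form a separate low cluster. Of the 9 relations none passed after adjustment, and 1 had an unadjusted p under 0.05. This was Cdk5 (Pearson r = -0.765, exact permutation p = 0.0306, adjusted 0.275, and Spearman rho = -0.714, exact permutation p = 0.136, adjusted 0.613 over 6 tumors). Without M3 and M5, the tumors farthest from the median of Cdk5r1, r was -0.213 over 4 tumors. Leaving them out also narrows the range of Cdk5r1, so this fall cannot tell whether the relation rests on them. With libraries scaled by their totals alone, r over the 6 tumors was 0.320. Cdk5rap3 had r = -0.714 (exact permutation p = 0.0833, adjusted 0.375) and rho = -0.714 (exact permutation p = 0.136, adjusted 0.613), and r = -0.673 without those tumors.

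The other 7 members had r between -0.279 (Capn1) and 0.390 (Cdk5r2), each with an adjusted exact permutation p of 0.825. Their rho ran from -0.600 (Capns1) to 0.429 (Cast), with adjusted exact permutation p-values from 0.725 to 1.0. Without M3 and M5 the r of Cdk5rap2 was -0.788, of Cdk5r2 0.722 and of Cast -0.940, over 4 tumors that are too few for a test. The sign for Cast, Capn2 and Capns1 turned when they were left out.

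The genes whose profile over the 9 libraries lay nearest to that of Cdk5r1 were Hells, a chromatin remodeler (Euclidean distance 1.17 after centring log2(CPM + 1)), Gins2, a subunit of the replicative helicase complex (1.24), and Pole, the catalytic subunit of DNA polymerase ε (1.26). Hells was at 62.0 to 129 CPM in the tumors, 62.8 in NI1, 5.20 in NI2 and 2.48 in NI3. Gins2 was at 14.1 to 22.1 CPM in the tumors, 18.0 in NI1, 1.46 in NI2 and 0.694 in NI3. Being chosen for the likeness of their profile, they share by construction the step between NI1 and the other islet libraries that Cdk5r1 has. Nearest to Cdk5 were Csnk1g2, a casein kinase 1 isoform (0.159), Tpra1, a membrane protein (0.191), and Wdr53 (0.222). Their levels in M5, where Cdk5 was highest, were 185, 60.9 and 13.6 CPM.

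Genes around the members were described from lists chosen by function. Among 15 centrosome partners of Cdk5rap2, all tested, 13 had a log2 fold change above 0 in tumors against islets, with a median of 0.78, beside 0.03 over all tested genes. With all libraries edgeR called 0, and 9 were higher at an unadjusted p under 0.05. Without NI1 edgeR called 7 higher and 0 lower. Tubg1, which encodes γ-tubulin, was at 46.45 to 72.3 CPM in tumors and 28.1 to 44.1 CPM in islet libraries (log2 fold change without NI1 1.09, edgeR adjusted p = 0.0225). Pcnt, which encodes pericentrin, the scaffold that Cdk5rap2 binds, was at 63.4 to 97.8 CPM in tumors and 36.5 to 58.6 CPM in islet libraries (without NI1 1.00, edgeR adjusted p = 0.02495). Stil, a factor of centriole duplication, was at 7.85 to 24.5 CPM in tumors and 0.446 to 6.99 CPM in islet libraries (without NI1 4.07, edgeR adjusted p = 0.01045). For all 3 genes M6 was the lowest tumor and NI1 the highest islet library, as for Cdk5rap2.

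Proliferation genes were the next list. All 15 had a log2 fold change above 0 (median 1.68), edgeR called 0 with all libraries, with 14 higher at an unadjusted p under 0.05, and 12 higher without NI1. Their summed level was 1295, 1362 and 1689 CPM in M1 to M3, 929.4, 1228 and 894.6 CPM in M4 to M6, and 804.7, 277 and 144 CPM in NI1 to NI3. Top2a, a topoisomerase of dividing cells, was at 104.5 to 315 CPM in tumors and 13.6 to 97.9 CPM in islet libraries. M3 was highest, M2 next and M6 lowest among tumors for both the summed list and Cdk5rap2, and M5 was above M4 in both. M1 was above M5 and M4 in the summed list and below them for Cdk5rap2. Fibroblast markers (8 of 8 above 0) summed to between 154 and 2171 CPM in tumors and between 174.6 and 224 CPM in the islet libraries, and macrophage markers (8 of 8 above 0) to between 417 and 1160.0 CPM against 178 to 391 CPM. No listed marker of either type was at 0 in all libraries. In M6 the fibroblast sum (154 CPM) was below that of all islet libraries. Its macrophage sum (417 CPM), its proliferation sum (894.6 CPM) and Cdk5rap2 were above those of all islet libraries. The part of proliferating or other cells in the level of Cdk5rap2 was not tested, and in bulk tissue fewer cells of a type and less RNA per cell cannot be told apart.

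**Figure D5:**
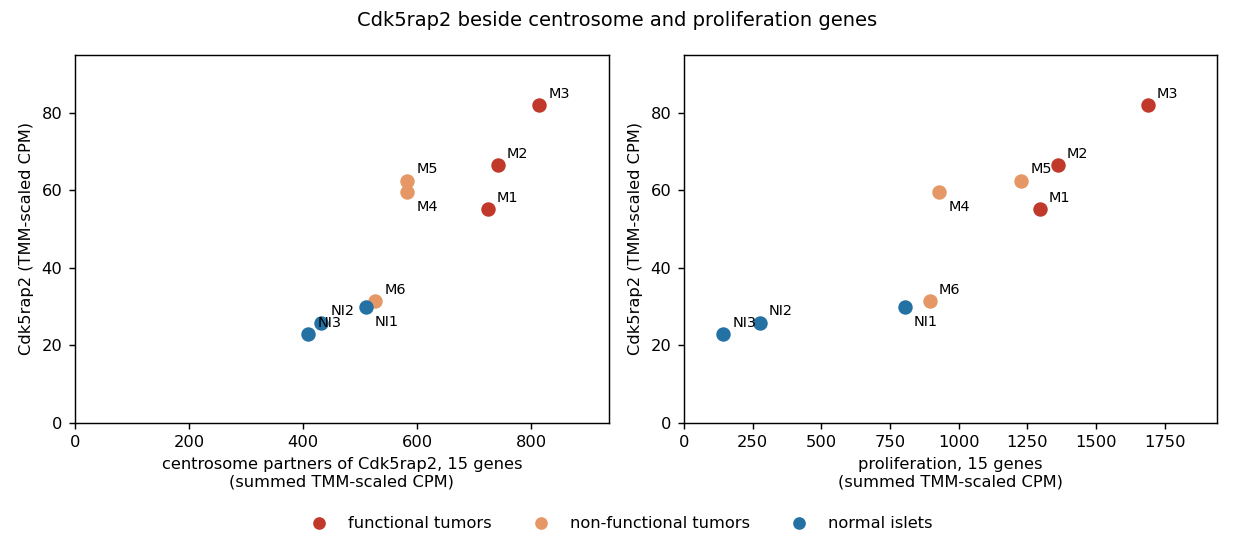
Cdk5rap2 (TMM-scaled CPM, vertical axis) against the summed TMM-scaled CPM of 15 centrosome genes (left) and 15 proliferation genes (right), with 1 point per library coloured by group. M3 is highest and NI3 lowest on every axis, and M6 lies beside the library labelled NI1.

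The 7 UFMylation partners of Cdk5rap3 all had a log2 fold change below 0 in tumors (median -0.67), and 6 of 7 did with libraries scaled by their totals alone. With all libraries edgeR called 0, and 4 were lower at an unadjusted p under 0.05, while without NI1 edgeR called 2 lower (Ufm1 and Ufsp1). Ufm1, the modifier itself, was at 79.2 to 177 CPM in tumors, 144.9 in NI1, 259 in NI2 and 274 in NI3 (log2 fold change without NI1 -1.23, edgeR adjusted p = 0.0393). Ufsp1, a protease that matures UFM1, was at 2.22 to 4.999 CPM in tumors and 3.58, 8.83 and 9.29 CPM in NI1 to NI3 (without NI1 -1.39, edgeR adjusted p = 0.0448). Ufsp2, the protease that removes UFM1, was at 27.1 to 51.7 CPM in tumors and 48.8, 70.4 and 74.55 CPM in NI1 to NI3, and did not pass without NI1 (-0.84, edgeR adjusted p = 0.0587).

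Of the other calpains, 7 of 12 were expressed highly enough to be tested, and edgeR called 0 with all libraries, with 1 lower at an unadjusted p under 0.05. Without NI1 it called 1 lower, Capn7, a calpain that lacks the domain through which Capns1 binds. Capn7 was at 36.3 to 76.6 CPM in tumors and 74.0, 121 and 114 CPM in NI1 to NI3 (-0.98 without NI1, edgeR adjusted p = 0.0436). Capn5 was at 42.6 to 66.3 CPM in tumors and 56.7, 36.7 and 29.3 CPM in NI1 to NI3 (0.70 without NI1, edgeR adjusted p = 0.102). Capn10, first known as a type 2 diabetes locus, was at 21.05 to 30.3 CPM in tumors and 29.2 to 34.4 CPM in islet libraries (-0.26 without NI1, edgeR adjusted p = 0.431).

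Among 14 other regulators of Cdk5, edgeR called 1 lower with all libraries. This was Egr1, the immediate early factor known to induce p35 in neuronal cells, at 4.70 to 17.7 CPM in tumors and 80.7, 351 and 180.2 CPM in NI1 to NI3 (log2 fold change -4.19 ± 0.48 SE, edgeR adjusted p = 0.00711). Egr1 is also 1 of 15 dissociation-response genes, of which edgeR called 9 lower. These summed to 279 to 473 CPM in tumors and to 962, 3425 and 1959 CPM in NI1 to NI3, and the part of tissue handling in the level of Egr1 was not tested. Cdk5r1 was lower in NI2 and NI3, where Egr1 was highest. In NI1, Cdk5r1 was within the range of the tumors while Egr1 was above every tumor. Whether Egr1 and Cdk5r1 were related was not tested. Without NI1 edgeR also called Cables1 higher, a linker of Cdk5 to tyrosine kinases that was named after its values were seen. It was at 6.47 and 7.05 CPM in NI3 and NI2 and at 13.02 to 32.8 CPM in tumors (1.60 without NI1, edgeR adjusted p = 0.0322). These values leave out NI1, and with all libraries edgeR called 0 of the 14 regulators higher.

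Known substrates of Cdk5 were counted in 2 lists. Of 18 neuronal and secretory substrates edgeR called 0 with all libraries, with 3 up and 1 down at an unadjusted p under 0.05 (median 0.41). The smallest p-values belonged to Nes, an intermediate filament (1.06 ± 0.35 SE, edgeR adjusted p = 0.1695), Cacna1c, a calcium channel of β-cells (0.79 ± 0.32 SE, edgeR adjusted p = 0.222), and Nde1, a dynein regulator (0.49 ± 0.20 SE, edgeR adjusted p = 0.226). Without NI1 it called 1 higher, Dnm1, named after its values were seen (1.86, edgeR adjusted p = 0.035). Of 13 nuclear and signalling substrates that were tested, edgeR called 0 with all libraries, with 4 higher at an unadjusted p under 0.05 (median 0.43). Without NI1 it called 4 higher (Suv39h1, Lig1, Rbl1 and Pole), beside 5.34% of all tested genes. Lig1 and Pole encode enzymes of DNA replication, and Pole was also 1 of the 3 profiles nearest to Cdk5r1. Whether substrates moved as a class was not tested. Suv39h1, a histone H3 methyltransferase, was at 24.7 to 45.5 CPM in tumors and 23.1, 14.1 and 10.8 CPM in NI1 to NI3 (1.48 without NI1, edgeR adjusted p = 0.0225). Lig1, the ligase of DNA replication, was at 80.8 to 185 CPM in tumors and 80.55, 16.0 and 14.3 CPM in NI1 to NI3 (3.05 without NI1, edgeR adjusted p = 0.0038). Rbl1, the pocket protein p107, was at 31.2 to 66.1 CPM in tumors and 38.9, 13.5 and 9.84 CPM in NI1 to NI3 (2.002 without NI1, edgeR adjusted p = 0.0147). Transcript levels of substrates do not show whether they were phosphorylated.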

How the data were processed

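Single-end RNA-seq of 9 libraries was trimmed with Trimmomatic 0.38 and quantified with Salmon 1.4.0 on mm10 by the authors, who deposited estimated counts per gene as whole numbers, not scaled between libraries. Column totals ran from 36468280 to 63637175 although the table is named TPM, so the values were taken as counts, no rounding was needed, and edgeR was used. How transcripts were summed to genes and whether strand was used are not given in the sources used here. Identifiers were matched to GENCODE for GRCm38 (54094 of 54347 genes).

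A gene was kept where 3 or more of the 9 libraries reached 1 CPM (15532 genes). After TMM scaling, quasi-likelihood F tests were run in edgeR 4.0.16 (R 4.3.3). Tumors against islets used a fit with all tumors as 1 group, and the other comparisons a 3-group fit. P-values were two-sided and adjusted by Benjamini-Hochberg over all genes tested, with a call at an adjusted p under 0.05. The SE of a log2 fold change was taken as its absolute value over the root of the F statistic. Relations used log2(CPM + 1), with exact two-sided permutation tests adjusted over 9 relations. Levels per length are CPM divided by kilobases of all annotated exons. Proteins were translated from the reference coding sequence. Alternatives were DESeq2 1.42.0, limma 3.58.1, other scalings and filters, and leaving out libraries. Scripts were tested on simulated data.

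The members and gene lists were chosen with earlier results of these data known. The text names all members, of each other list the genes called in tumors against islets or else at most 3 with the smallest p, the 3 profiles nearest to Cdk5r1 and to Cdk5, and a few genes marked as named after their values were seen. Replicate numbers 1 to 3 of functional tumors and islets were not treated as pairs, since deviations from the group means correlated at -0.0516, 0.03 and -0.159 between same-numbered libraries.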

Additional observations from a re-analysis of the deposited data

Results flagged for a closer look

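In each of the 10 members, the highest and lowest of the 6 tumors were compared with the spread of the others by Dixon's criterion at the 95% level, which flags about 1 in 20 groups by chance. Cdk5 met it once: at 54.66 CPM, M5 was separated from the next tumor by 0.653 of the whole range of the tumors. The other 9 members had no tumor past the criterion.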

How the results depend on the processing

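Cdk5r1 was called only where the library labelled NI1 was left out, and DESeq2, limma-trend, other scalings and other filters did not call it. Its log2 fold change of 1.32 was 2.54 by limma-trend, 0.822 without NI2 and 0.794 without NI3. Leaving out 1 library at a time, the count of members called was 0 to 2 for tumors against islets, 0 to 2 for functional and 0 to 1 for non-functional tumors against islets, and 0 for functional against non-functional tumors. The highest counts came without NI1 (2, 2 and 1), and without M6 tumors against islets gave 1 (Cdk5rap2). Leaving out NI1 and M6 together, chosen after seeing the data, gave 2 members in each comparison with islets. DESeq2 called 1 member (Cdk5rap2) in tumors against islets and 1 in functional tumors against islets, where the fit without a filter on low counts and the fit of 6 libraries without a block also called 1. With the replicate number as a block, 0 members were called, and no functional tumor correlated best with the islet library of its own number. Over all genes, functional tumors against islets gave 10 higher and 24 lower with that block and 56 higher and 107 lower without it. Tumors against islets gave 0 higher and 40 lower by edgeR, 764 and 488 by DESeq2, and 819 and 461 without NI1. The cause of these differences was not tested.

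Of 306 fold changes of members under alternatives, 281 kept direction and call, 16 were newly called and 9 changed sign, none of them called (smallest adjusted p 0.784). Scaling by library total alone moved the median of all genes to 0.25 (tumors against islets), 0.32 (functional against non-functional), 0.38 (functional against islets) and 0.05 (non-functional against islets), and split the calls of functional tumors against islets 36 higher and 79 lower, beside 7 and 67. Sign changes under it were Cdk5r2 0.0381, Capn1 0.172 and Capn2 0.0635 in tumors against islets, Cdk5 0.021 between the tumor groups and Capns1 0.0064 in non-functional tumors against islets. Leaving out 1 library, Cdk5 ran from -0.0147 to 0.143 and Capn1 from -0.135 to 0.0066 in tumors against islets, and Capns1 from -0.203 to 0.0565 in non-functional tumors against islets.

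No relation to Cdk5r1 passed in any setting. With 1 tumor left out, the exact test has too few arrangements for a relation to pass by itself after adjustment. With library totals alone r turned positive for Cdk5 (0.320), Cdk5rap1 (0.657), Cdk5rap2 (0.385), Capn1 (0.714) and Capns1 (0.293). Without the 2 tumors farthest from the median r was -0.161 for Capn2, 0.252 for Capns1 and -0.940 for Cast, and 4 tumors cannot pass a test. Leaving out 1 tumor, r ran from -0.628 to 0.428 for Capn1, -0.495 to 0.410 for Capn2, -0.810 to 0.147 for Capns1, -0.262 to 0.543 for Cast, -0.0059 to 0.562 for Cdk5r2, -0.4996 to 0.0928 for Cdk5rap1 and -0.776 to 0.532 for Cdk5rap2.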
